A study of Mus musculus with 22 samples.

Results

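The genes described here are 10 chemokine, cytokine and receptor genes of eosinophil and type 2 inflammation: the chemokines Ccl11, Ccl24, Ccl17 and Ccl22, the chemokine receptors Ccr3 and Ccr4, the cytokines Il5 and Il13, the receptor chain Il4ra and the effector gene Retnla. They were chosen by name, through the RefSeq accession of each probe, and make up 10 of the 20018 named genes and 11 of the 55681 probes on the arrays. Il4ra had 2 probes and each of the others had 1.

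Female C57BL/6 mice, 8 weeks old at the start, received Mitsui7, a multiwalled carbon nanotube material, in a single intratracheal instillation of 40 µl, and the right lung was collected 24 hours later. There were 5 control mice, which received the vehicle alone (0.9% NaCl with 10% acellular lavage fluid of other mice), 6 mice at the dose of 18 µg, 5 at 54 µg and 6 at 162 µg, each a separate animal of 1 inbred strain and 1 sex. The methods give 6 mice in each group, and the remaining control and 54 µg mice were not analysed here. Lung RNA was labelled with the dye Cy5 and hybridised together with a Cy3-labelled reference RNA pooled from 11 mouse cell lines. The values given are log2 ratios of lung to reference, normalized by loess array by array.

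CCL11 and CCL24 are eotaxins, which attract eosinophils through the receptor CCR3, while CCL17 and CCL22 attract T helper cells of the type 2 class and regulatory T cells through CCR4. IL-5 is the growth and survival factor of eosinophils, and IL-13 acts on epithelium, smooth muscle and macrophages through a receptor that contains the IL-4 receptor α chain (Il4ra) and signals through the transcription factor STAT6. In the lung this circuit is best known from allergic inflammation and helminth infection, where macrophages and epithelium exposed to IL-4 and IL-13 secrete the resistin-like protein encoded by Retnla.

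RefSeq promoter sequences were given for 8 of the 10 genes, Ccl11 and Ccl24 having no entry, and were searched on both strands over the 250 bases before the start of each gene (GRCm38.p6). The STAT6 motif (TTC, any 4 bases, GAA) was found in 2 of the 8, Ccl17 and Retnla, and in 5.85% of 32851 promoters of all genes. The 2 promoters with this motif are shown because Ccl17 and Retnla were the genes called at 18 µg, and that of Il13 because it encodes a ligand of the pathway. Capitals mark the motifs found. In Ccl17 (chr8:94810203-94810452, plus strand) they are the STAT6 motif, 154 to 145 bases before the start, and a GATA motif (AGATAA on the other strand) at 109 to 104. In Retnla (chr16:48842359-48842608, plus strand) they are the STAT6 motif at 145 to 136 and a TATA box (TATAAA) at 30 to 25. In Il13 (chr11:53634703-53634952, minus strand) they are a GATA motif at 81 to 76 and overlapping TATA boxes at 31 to 24.
Ccl17: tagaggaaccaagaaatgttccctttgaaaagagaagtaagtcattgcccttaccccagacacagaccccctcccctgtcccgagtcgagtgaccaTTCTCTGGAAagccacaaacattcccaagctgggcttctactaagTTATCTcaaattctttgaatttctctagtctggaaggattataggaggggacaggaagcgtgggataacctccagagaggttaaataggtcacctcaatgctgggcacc
Retnla: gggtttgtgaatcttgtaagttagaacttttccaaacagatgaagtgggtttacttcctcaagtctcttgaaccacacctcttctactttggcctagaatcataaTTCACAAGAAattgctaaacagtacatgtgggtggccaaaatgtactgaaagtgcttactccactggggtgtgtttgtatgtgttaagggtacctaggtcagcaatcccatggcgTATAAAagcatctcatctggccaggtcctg
Il13: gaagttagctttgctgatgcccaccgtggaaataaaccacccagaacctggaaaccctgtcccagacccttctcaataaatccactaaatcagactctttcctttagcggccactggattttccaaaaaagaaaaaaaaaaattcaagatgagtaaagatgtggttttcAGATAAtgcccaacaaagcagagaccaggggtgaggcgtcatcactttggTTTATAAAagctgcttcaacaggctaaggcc
The GATA motif was found in 3 of the 8 promoters (Ccl17, Ccr3 and Il13) against 9.99% of all promoters, and the TATA box in 2 against 12.4%. The motif TGANTCA of AP-1 was found in Ccr3 and Ccr4 (6.75% of all promoters) and the NF-kB motif (GGG, any 2 bases, TTTCC) in Ccr3 (1.41%). None of these letters was found before Il5, Il4ra or Ccl22. A match is a description of the sequence, and binding was not measured.

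Against control, limma called 2 of the 10 genes higher at 18 µg (Ccl17 and Retnla), 1 at 54 µg (Ccl17) and 2 at 162 µg (Ccl17 and Il4ra), and none lower. A call required an adjusted p of at most 0.05 over all probes, a change of at least 1.5-fold and a Cy5 signal that exceeded the negative controls on 80% or more of the arrays of a compared group, and 9 of the 10 met this last condition in each comparison. Of all named genes, 0.52% were called higher at 18 µg, 0.205% at 54 µg and 2.74% at 162 µg (1.7%, 0.32% and 5.64% in either direction). The 3 comparisons share the same 5 controls. The fitted log2 change was above 0 for 10, 9 and 8 of the 10 genes at 18, 54 and 162 µg. The signs of Ccl22 and Ccr4, which lay near background, depended on the fit, and by the group means alone the counts were 9, 10 and 9. Over the 6, 7 and 7 genes that were well above background on an array of both groups, the change was above 0 for 6, 6 and 5, with medians of 1.63, 0.86 and 1.03, where the medians over all named genes were -0.01, -0.01 and 0.00. In whole lung RNA, more cells of a type and more RNA per cell cannot be told apart.

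**Figure D1:**
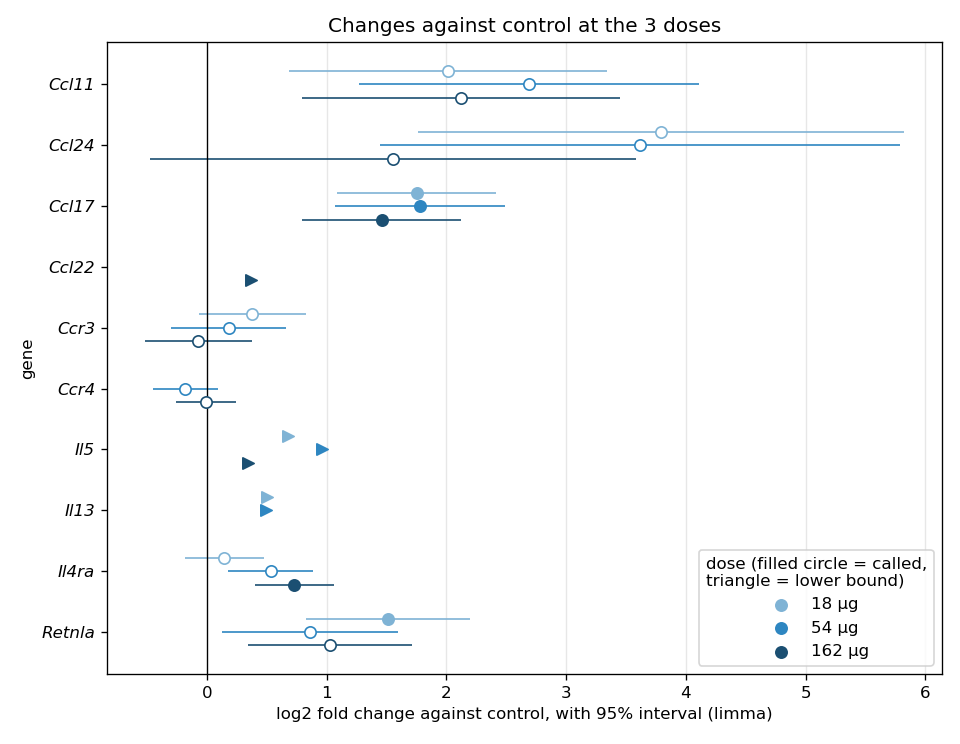
Log2 fold change of each gene against control at 18, 54 and 162 µg, with 95% intervals from limma. Filled points were called, and Ccl17 is the gene called at all 3 doses (1.75, 1.78 and 1.46). Triangles mark the lower bound of the difference in means, without an error, for Il5, Il13 and Ccl22 where controls were not well above background. Comparisons with a group below background and no such bound have no point.

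The arrays lay on 7 slides of 3 or 4, and 2 slides (3 and 6) held no control. Dose and slide were fitted together. The share of probes above the negative controls lay between 70.5% and 77.7% on control arrays, between 56.8% and 77.9% at 18 µg, between 58.1% and 78.9% at 54 µg and between 52.1% and 83.5% at 162 µg, and the lowest shares were on arrays of exposed mice. The lung genes Sftpc, Scgb1a1 and Ager, which mark alveolar type II, club and alveolar type I cells, were well above background on 22 of 22 arrays. The median standard error of a log2 change was 0.12, 0.13 and 0.12 at 18, 54 and 162 µg.

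Ccl11 (eotaxin-1) had log2 ratios of 1.10, 1.24, 1.80, 1.66 and 0.75 in the 5 controls. At 18 µg the ratios ran from 0.50 to 4.88 with a median of 3.45, at 54 µg they were 3.63, 4.64, 2.20, 3.80 and 5.18, and at 162 µg they ran from 2.71 to 4.86 with a median of 3.23. Of the exposed mice, 5 of 6, 5 of 5 and 6 of 6 lay above every control, while replicate 6 of the 18 µg group, at 0.50, lay below all controls and was not well above background. The log2 change of Ccl11 was 2.01 (standard error, SE, 0.63, adjusted p = 0.118) at 18 µg, 2.69 (SE 0.67, adjusted p = 0.136) at 54 µg and 2.12 (SE 0.63, adjusted p = 0.0570) at 162 µg in limma, so Ccl11 was not called, although its 95% intervals excluded 0 at each dose. Within the slides that held both groups the difference ran from 1.68 to 2.72 on 4 of 4 slides at 18 µg, from 2.53 to 3.05 on 3 of 3 at 54 µg and from 1.52 to 2.04 on 4 of 4 at 162 µg. These ranges leave out the lowest mice of 2 groups, 18 µg replicate 6 and 54 µg replicate 3, whose slides held no control. Ccl11 was called at 54 µg without 54 µg replicate 3 (3.33, adjusted p = 0.00455). At 18 µg it was called without 18 µg replicate 6 (2.48, adjusted p = 0.0215) or 54 µg replicate 5 (2.21, adjusted p = 0.0310). At 162 µg it was called without 18 µg replicate 4 (adjusted p = 0.0365), 18 µg replicate 6 (0.0220), 54 µg replicate 3 (0.0146) or 54 µg replicate 5 (0.0102), where the log2 change was 2.25, 1.88, 1.88 and 2.31. It was also called at 162 µg with the 2 groups fitted alone (1.81, adjusted p = 0.000853), without a slide term (0.0364), with slide as a random block (0.0246) or with expressed probes alone tested (0.0449). With the 2 groups fitted alone Ccl11 was called at 18 µg (2.29, adjusted p = 0.00456) and 54 µg (2.81, adjusted p = 1.32e-05) too. The fits of 2 groups alone give no weight to the mice on slides 3 and 6, 18 µg replicate 6 and 54 µg replicate 3 among them. Of 15 other settings of the limma fit, it was called in 3 at 18 µg, 3 at 54 µg and 6 at 162 µg.

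Ccl24 (eotaxin-2) was lower than in the reference RNA in every control lung, with log2 ratios of -2.90, -3.37, -3.32, -1.96 and -2.50. At 18 µg it ran from -1.92 to 3.75 with a median of 1.43, and at 54 µg the ratios were 1.72, 1.4, -2.58, 2.27 and 1.97. At 162 µg it ran from -2.34 to 1.03 with a median of -1.71. The exposed mice therefore spread over several log2 units: all 6 at 18 µg lay above every control, replicate 6 at -1.92 by a small margin, 4 of 5 lay above at 54 µg, with replicate 3 among the controls, and 5 of 6 lay above at 162 µg, where only replicate 4 was above 0.

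The log2 change of Ccl24 was 3.79 (SE 0.96, adjusted p = 0.0585) at 18 µg, 3.62 (SE 1.03, adjusted p = 0.213) at 54 µg and 1.55 (SE 0.96, adjusted p = 0.452) at 162 µg in limma. No dose was called in this fit, and the standard error was the widest among the 10 genes. Between the doses, Ccl24 differed by -2.24 (95% interval -4.14 to -0.34, adjusted p = 0.209) for 162 µg against 18 µg and by -2.06 (95% interval -4.09 to -0.03, adjusted p = 0.627) for 162 µg against 54 µg. Within slides the difference against control lay between 2.46 and 4.65 at 18 µg, between 4.62 and 4.77 at 54 µg and between 0.01 and 1.5 at 162 µg. The mice on slides 3 and 6, which held no control, are not in these ranges. Among them are 18 µg replicate 6 and 54 µg replicate 3, the lowest of their groups. Replicate 3 of the 54 µg group decided several of these calls: without it Ccl24 was called at 54 µg (4.77, adjusted p = 0.000678), at 18 µg (3.37, adjusted p = 0.00710), for 162 µg against 18 µg (-2.24, adjusted p = 0.00847) and for 162 µg against 54 µg (-3.64, adjusted p = 0.0137). At 18 µg Ccl24 was also called without 18 µg replicate 6 (4.31, adjusted p = 0.0268), 54 µg replicate 5 (3.97, adjusted p = 0.0307), 162 µg replicate 4 (3.98, adjusted p = 0.0489) or 162 µg replicate 6 (3.88, adjusted p = 0.0450). Of 15 other settings of the limma fit, it was called in 6 at 18 µg, 3 at 54 µg and none at 162 µg. With the 2 groups fitted alone the log2 change was 3.76 (adjusted p = 0.00595) at 18 µg and 4.7 (adjusted p = 1.57e-07) at 54 µg. These fits rest on the slides that held both groups, 4 at 18 µg and 3 at 54 µg. They give no weight to 18 µg replicates 4 and 6 or to 54 µg replicates 3 and 5, so they do not test all mice. At 18 µg the other calls included those without a slide term (0.0471) and with slide as a random block (0.0264).

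Ccl17 (TARC) rose at all 3 doses. The controls had log2 ratios of 2.15, 2.16, 1.93, 3.02 and 2.36, a mean of 2.32 ± 0.42 (SD, n = 5). At 18 µg the ratios ran from 2.91 to 4.87 with a median of 4.23, at 54 µg they were 3.62, 4.24, 3.63, 4.37 and 4.84, and at 162 µg they ran from 3.40 to 4.31 with a median of 3.93. The groups did not overlap with the controls at 54 and 162 µg, and at 18 µg 5 of 6 mice lay above every control while replicate 6 lay below control replicate 4.

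The log2 change of Ccl17 was 1.75 (SE 0.32, adjusted p = 0.0172) at 18 µg, 1.78 (SE 0.34, adjusted p = 0.0367) at 54 µg and 1.46 (SE 0.32, adjusted p = 0.0105) at 162 µg in limma. No dose was called different from another: the difference was 0.03 for 54 µg against 18 µg (95% interval -0.64 to 0.69), -0.32 for 162 µg against 54 µg (95% interval -0.98 to 0.35) and -0.29 for 162 µg against 18 µg (95% interval -0.91 to 0.33). It was above 0 on each slide that held both groups, from 1.59 to 2.19 on 4 slides at 18 µg, from 1.48 to 2.31 on 3 at 54 µg and from 0.38 to 1.98 on 4 at 162 µg.

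The call of Ccl17 at 54 µg was the least stable, being lost in 14 of 22 fits that left out 1 mouse. The log2 change stayed between 1.57 and 1.99 in these, and the adjusted p of the lost calls ran from 0.0510 to 0.181, without replicates 1, 2, 3 or 5 of the control or 18 µg groups, 1, 2 or 4 of the 54 µg group, or 1, 2 or 5 of the 162 µg group. The call at 18 µg was lost without control replicate 1 (adjusted p = 0.0721), control replicate 5 (0.0691) or 18 µg replicate 5 (0.0589), and that at 162 µg without control replicate 3 (0.0516). With arrays centred on their median the log2 change was 1.25, 1.57 and 1.03 and no dose was called.

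Ccl22 (MDC), the other CCR4 ligand, was not well above background on any control or 18 µg array, and was so on 1 of 5 arrays at 54 µg and 3 of 6 at 162 µg. The control ratios lay between 0.05 and 0.24, and those at 162 µg were 0.97, 1.15, 0.47, 0.42, -0.23 and 0.36 in replicates 1 to 6. All but 1 of the 162 µg mice lay above every control. At 162 µg Ccl22 was at least 1.29-fold higher than in controls (adjusted p = 0.108). Such a bound sets the mean Cy5 level of the brighter group, dim arrays included, against the dimmer group. On each array of the dimmer group the floor was the lowest Cy5 level of any probe well above background there. The signal itself was used where it was higher. A higher floor would give a smaller bound. The bound describes means and has no slide term or error, and the adjusted p beside it belongs to the fitted log2 ratio. Both sides of the bound are Cy5 levels, as lung RNA was labelled with Cy5 on every array. Without 162 µg replicate 5, which lay below all controls, Ccl22 was called at 162 µg (adjusted p = 0.00980).

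Among the chromosomal neighbours of the chemokines in the RefSeq annotation (GRCm38.p6), Ccl11 lies between Ccl7 and Ccl12, with Ccl2 and Ccl8 next to these, and Ccl22 and Ccl17 lie on either side of Cx3cl1. These neighbours were chosen after their values were seen. Ccl2, the main attractant of monocytes, lay above all controls in every exposed mouse, with log2 changes of 2.02 (adjusted p = 0.0502), 2.67 (adjusted p = 0.0474, called) and 2.21 (adjusted p = 0.0122, called) at 18, 54 and 162 µg in limma. Cx3cl1, which encodes fractalkine, had changes of -0.06, -0.01 and -0.43 and was not called.

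**Figure D2:**
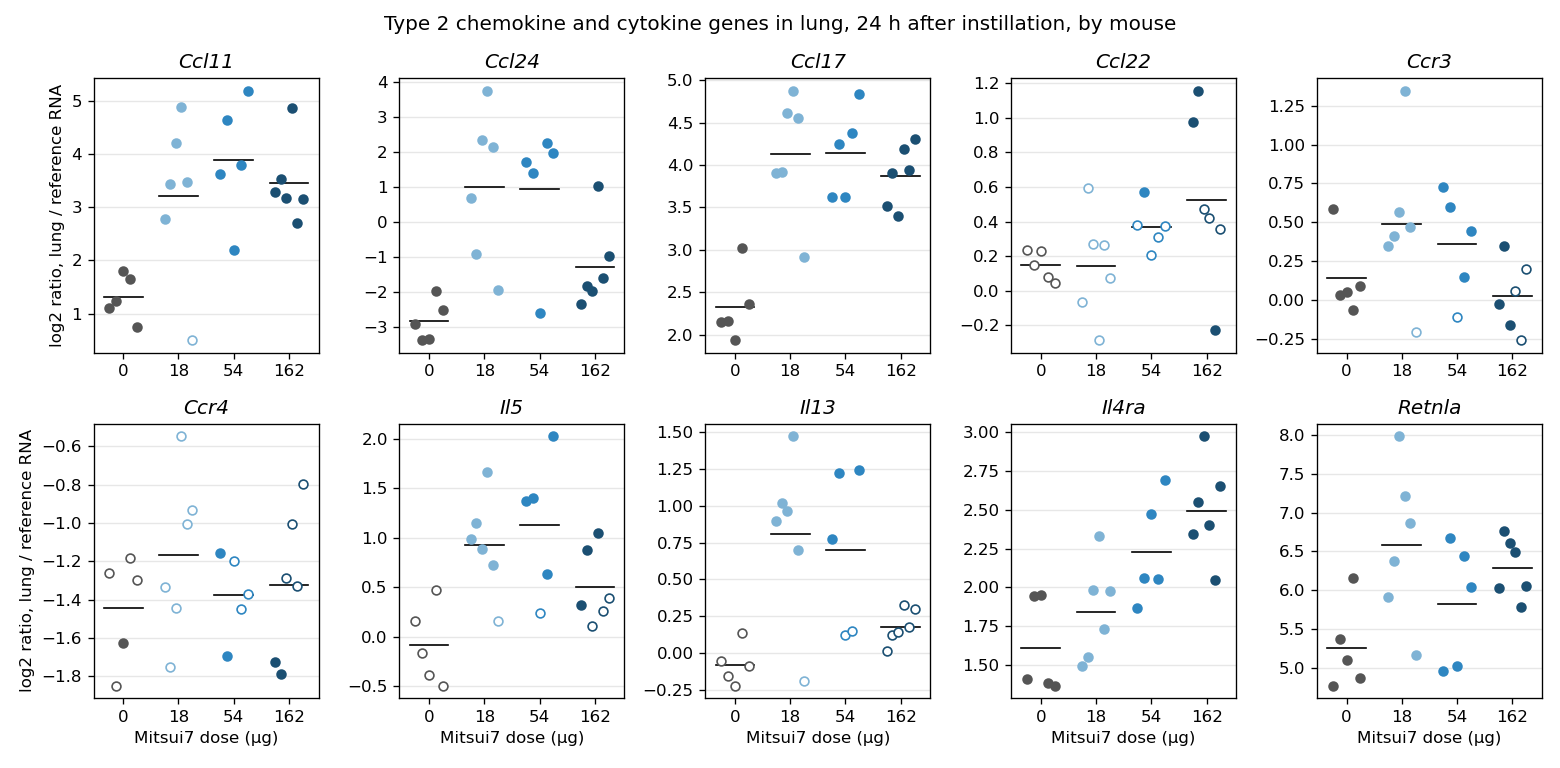
Log2 ratio of lung to reference RNA in each mouse against dose, 1 panel per gene with its own axis, and the group mean as a line. Filled points were well above background on that array and open points were not, as for all controls of Ccl22, Il5 and Il13, and the 54 µg mouse far below its group in the Ccl24 panel is replicate 3 at -2.58.

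The receptors of these chemokines were not called at any dose by limma, and neither had an unadjusted p under 0.05 against control. Ccr3, the eotaxin receptor of eosinophils, had control ratios of 0.58, 0.03, 0.05, -0.06 and 0.09. It ran from -0.21 to 1.35 with a median of 0.44 at 18 µg, was 0.73, 0.60, -0.11, 0.14 and 0.45 at 54 µg, and ran from -0.26 to 0.34 with a median of 0.02 at 162 µg. The groups overlapped, and 1 of 6, 2 of 5 and 0 of 6 mice lay above every control. The log2 change of Ccr3 was 0.38 (95% interval -0.07 to 0.83, adjusted p = 0.428) at 18 µg, 0.18 (-0.30 to 0.66, adjusted p = 0.911) at 54 µg and -0.07 (-0.52 to 0.38, adjusted p = 0.929) at 162 µg in limma.

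Ccr4, the receptor of CCL17 and CCL22, was close to background: it was well above it on 1 of 5 control arrays, 0 of 6 at 18 µg, 2 of 5 at 54 µg and 2 of 6 at 162 µg. Its log2 ratio averaged -1.44 ± 0.28 (SD, n = 5) in controls. At 18, 54 and 162 µg the means were -1.17 ± 0.43 (SD, n = 6), -1.37 ± 0.22 (SD, n = 5) and -1.32 ± 0.39 (SD, n = 6). The groups overlapped at every dose. The 95% intervals of the log2 change were -0.45 to 0.09 at 54 µg and -0.26 to 0.24 at 162 µg, and no fold is given at 18 µg, where no array was well above background.

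Il5 was not well above background in any control, and was so on 5 of 6 arrays at 18 µg, 4 of 5 at 54 µg and 3 of 6 at 162 µg. The control ratios were 0.16, -0.16, -0.39, 0.47 and -0.49. They ran from 0.16 to 1.67 with a median of 0.94 at 18 µg, were 1.37, 1.4, 0.24, 0.63 and 2.03 at 54 µg, and ran from 0.11 to 1.05 with a median of 0.36 at 162 µg. In all, 5 of 6, 4 of 5 and 2 of 6 mice lay above every control, so the overlap with controls was widest at 162 µg.

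Against the floor described for Ccl22, the mean of Il5 was at least 1.60-fold higher than in controls at 18 µg, 1.95-fold at 54 µg and 1.27-fold at 162 µg. The adjusted p of the log2 ratio in limma was 0.110, 0.192 and 0.341. These bounds have no error, and at 162 µg the 95% interval of the fitted log2 change, -0.06 to 1.24, included 0. None was called. The difference between 162 µg and 54 µg was -0.60 (95% interval -1.25 to 0.05, adjusted p = 0.692). Il5 was called at 18 µg without 18 µg replicate 6 (adjusted p = 0.0479) or 54 µg replicate 5 (adjusted p = 0.0281), and at 54 µg without 54 µg replicate 3 (adjusted p = 0.0136).

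Il13 showed the same low level in controls, with ratios of -0.06, -0.16, -0.22, 0.14 and -0.09, none of them well above background. At 18 µg they were 0.90, 1.02, 0.97, 1.47, 0.70 and -0.19 in replicates 1 to 6, and at 54 µg 0.77, 1.22, 0.12, 0.15 and 1.24. At 162 µg they ran from 0.02 to 0.32, and no array was well above background. Of the 11 mice of the lower doses, 8 were well above background, between 0.70 and 1.47, while 18 µg replicate 6 and 54 µg replicate 3 lay among the controls and 54 µg replicate 4 just above them.

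Il13 was at least 1.41-fold higher than in controls at 18 µg (adjusted p = 0.0800) and at 54 µg (adjusted p = 0.329) in limma. For 162 µg the level could not be told from that of controls, as neither was well above background on any array. By the bound of means it was at least 1.4-fold lower than at 18 µg (adjusted p of the log2 ratio in limma = 0.168). Il13 was called at 18 µg without 18 µg replicate 6 (adjusted p = 0.0148) or 54 µg replicate 5 (adjusted p = 0.0269). Without 18 µg replicate 6 it was also called lower at 162 µg than at 18 µg (adjusted p = 0.0107).

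Il5 and Il13 lie on either side of Rad50 on chromosome 11, with Il4 next to Il13 and Irf1 next to Il5. Il4, the other cytokine of the locus, had log2 changes of 0.52 (adjusted p = 0.348), 0.07 (adjusted p = 0.984) and 0.10 (adjusted p = 0.911) at 18, 54 and 162 µg in limma and was not called. It lay near background, and was well above it on 1 of 5 control arrays, 3 of 6 at 18 µg, 2 of 5 at 54 µg and 2 of 6 at 162 µg. At 18 µg replicate 4 had a log2 ratio of 2.30, where the group median was 0.51. Rad50, a DNA repair gene, had changes of 0.02, -0.16 and -0.11, and Irf1, an interferon response factor, of 0.11, -0.23 and -0.60, again with no call.

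Il4ra rose at 162 µg. On its brighter probe the control ratios were 1.41, 1.95, 1.95, 1.38 and 1.37. They ran from 1.5 to 2.33 with a median of 1.85 at 18 µg, were 1.87, 2.06, 2.47, 2.06 and 2.69 at 54 µg, and ran from 2.05 to 2.97 with a median of 2.48 at 162 µg. The number of mice above every control was 3 of 6, 4 of 5 and 6 of 6, and the group means were in the order of dose: 1.61 ± 0.31 (SD, n = 5), 1.84 ± 0.31 (SD, n = 6), 2.23 ± 0.34 (SD, n = 5) and 2.49 ± 0.31 (SD, n = 6).

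The log2 change of Il4ra was 0.15 (SE 0.16, adjusted p = 0.732) at 18 µg, 0.53 (SE 0.17, adjusted p = 0.282) at 54 µg and 0.73 (SE 0.16, adjusted p = 0.0101) at 162 µg in limma. Neighbouring doses were not called different, at 0.39 (95% interval 0.06 to 0.72, adjusted p = 0.428) for 54 µg against 18 µg and 0.20 (95% interval -0.13 to 0.53, adjusted p = 0.856) for 162 µg against 54 µg. For 162 µg against 18 µg the difference was 0.58 with an adjusted p of 0.0301, just under the 1.5-fold limit of a call. The call at 162 µg was also lost with the 2 groups fitted alone (0.82, adjusted p = 0.0516). Il4ra was above control on 4 of 4 slides at 162 µg, by 0.39 to 1.59. Its change at 162 µg was 0.55 without control replicate 4 and 0.58 without 162 µg replicate 3, below the limit of 1.5-fold, with adjusted p of 0.0365 and 0.0312. The difference from 18 µg passed that limit with an adjusted p of at most 0.0469 without control replicate 3, 18 µg replicate 4 or 5, 54 µg replicate 1, or 162 µg replicate 4, 5 or 6. The dimmer probe of Il4ra was not called, with changes of 0.15, 0.22 and 0.52 (adjusted p = 0.245 at 162 µg), and its control and 162 µg ratios overlapped (0.20 to 1.14 and 0.54 to 2.53).

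Retnla, which encodes RELMα, was called higher at 18 µg in the main fit. Control ratios were 4.77, 5.37, 5.10, 6.16 and 4.86. They ran from 5.17 to 7.99 with a median of 6.62 at 18 µg, were 4.96, 6.67, 5.02, 6.44 and 6.04 at 54 µg, and ran from 5.78 to 6.77 with a median of 6.27 at 162 µg. The groups overlapped: control replicate 4 was the highest control, and 4 of 6, 2 of 5 and 3 of 6 exposed mice lay above it.

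The log2 change of Retnla was 1.51 (SE 0.33, adjusted p = 0.0326) at 18 µg, 0.86 (SE 0.35, adjusted p = 0.459) at 54 µg and 1.03 (SE 0.33, adjusted p = 0.0750) at 162 µg in limma. It was above 0 on each slide that held both groups, between 1.01 and 2.00 at 18 µg, 0.19 and 1.58 at 54 µg, and 0.45 and 1.67 at 162 µg. No dose was called different from another, the difference being -0.66 (95% interval -1.34 to 0.03) for 54 µg against 18 µg and -0.49 (95% interval -1.13 to 0.15) for 162 µg against 18 µg. The call at 18 µg was lost in 9 of 22 fits that left out 1 mouse, with adjusted p from 0.0544 to 0.110, without control replicates 1, 3, 4 or 5, 18 µg replicates 1, 3, 4 or 5, or 54 µg replicate 2. The call at 18 µg was also lost without a slide term (1.33, adjusted p = 0.112) and with the log2 ratios deposited by the authors (1.38, adjusted p = 0.0542). With those ratios Retnla was called at 162 µg instead (1.09, adjusted p = 0.0418). Retnla was called at 162 µg with the 2 groups fitted alone (0.92, adjusted p = 0.0344), and without 18 µg replicate 4 (1.09, adjusted p = 0.0481), 54 µg replicate 3 (0.92, adjusted p = 0.0423) or 54 µg replicate 5 (1.09, adjusted p = 0.0428).

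Retnla was also the gene whose change depended most on the channel. Its raw Cy5 signal, from lung RNA, lay 6.22 to 9.0 log2 units above the array median in controls, and between 6.08 and 11.87 at 18 µg, 8.30 and 11.11 at 54 µg, and 7.79 and 11.03 at 162 µg, with no saturated spot. Its Cy3 signal, from the same reference RNA on every array, was 2.06 to 4.10 above the median in controls, and between 3.17 and 6.15 at 18 µg, 5.27 and 7.23 at 54 µg, and 4.88 and 5.99 at 162 µg. The Cy3 signal was thus higher on the arrays of 16 of the 17 exposed mice than on any control array, and the ratio moved less than the Cy5 signal. From Cy5 alone, scaled to the 75th percentile of each array, the log2 change of Retnla was 3.69 (adjusted p = 0.00208), 3.76 (adjusted p = 0.00289) and 3.1 (adjusted p = 0.00140) at the 3 doses in limma, and all were called. With arrays centred on their median it was 0.50, 0.13 and 0.23 and none was called. Why the Cy3 signal of this probe differed between arrays was not tested.

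The Cy3 signal of Ccl17 was 1.39 to 2.23 above the array median in controls, and between 2.06 and 2.40 at 18 µg, 2.42 and 2.81 at 54 µg, and 2.17 and 2.69 at 162 µg. From Cy5 alone the log2 change of Ccl17 was 1.92, 2.20 and 1.70, close to that of the ratio. The Cy3 signal of Ccl24 overlapped between controls, at 2.92 to 4.44, and each dose, at 3.33 to 4.06, 3.79 to 4.44 and 3.84 to 4.66.

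**Figure D3:**
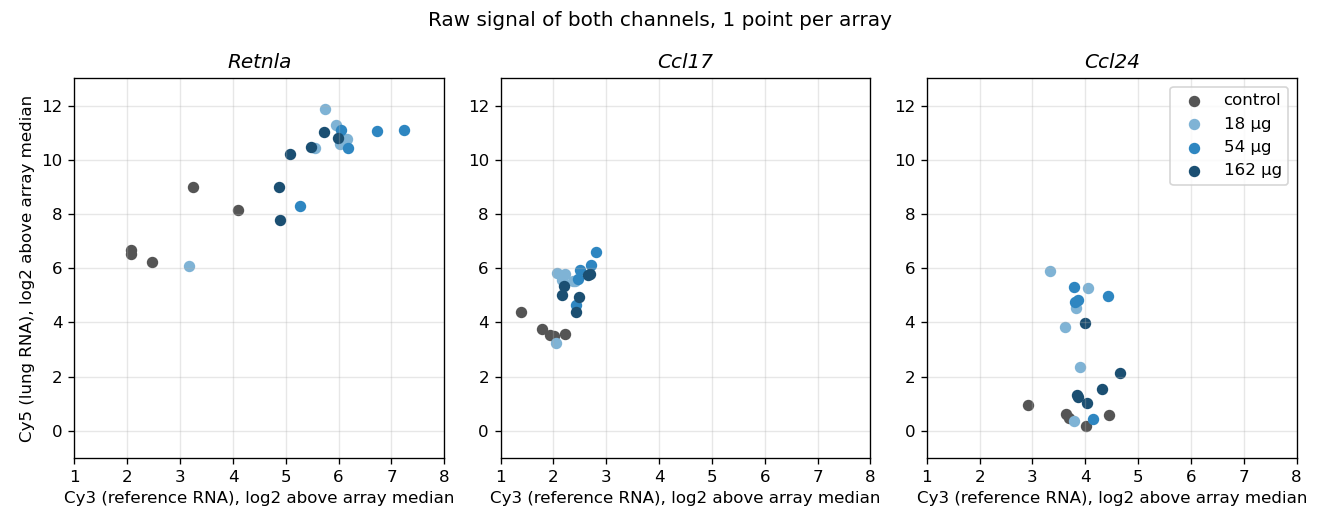
Raw Cy5 signal of lung RNA against raw Cy3 signal of reference RNA, as log2 above the median of the array, for Retnla, Ccl17 and Ccl24, 1 point per array. Retnla points move along both axes, from Cy3 values of 2.06 to 4.10 in controls to as high as 7.23 at 54 µg, whereas those of Ccl24 move along the Cy5 axis.

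Within a dose, the same mice were often the lowest or the highest. Replicate 6 of the 18 µg group was the lowest of its group for 7 of the 10 genes and replicate 4 the highest for 8. At 54 µg replicate 3 was the lowest for 6 and replicate 5 the highest for 5, and at 162 µg replicate 5 was the lowest for 5 and replicate 4 the highest for 4. The mean log2 ratio over the 10 genes was 0.51 to 0.97 in controls, and the lowest exposed mouse had 0.75, 1.00 and 1.15 at 18, 54 and 162 µg. Only 18 µg replicate 6 lay within the controls by this mean.

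These mice also differed in array brightness and slide. On the array of 18 µg replicate 6, 56.8% of probes were above the negative controls and the median Cy5 signal was 1.24 times local background. For 54 µg replicate 3 these were 58.1% and 1.4, and for 162 µg replicate 4, the highest of its group for 4 genes, 52.1% and 1.57. 18 µg replicate 4, 54 µg replicate 3 and 162 µg replicate 4 shared slide 3, and 18 µg replicate 6, 54 µg replicate 5 and 162 µg replicate 6 shared slide 6, the 2 slides with no control. The part of brightness and slide in these differences was not tested.

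**Figure D4:**
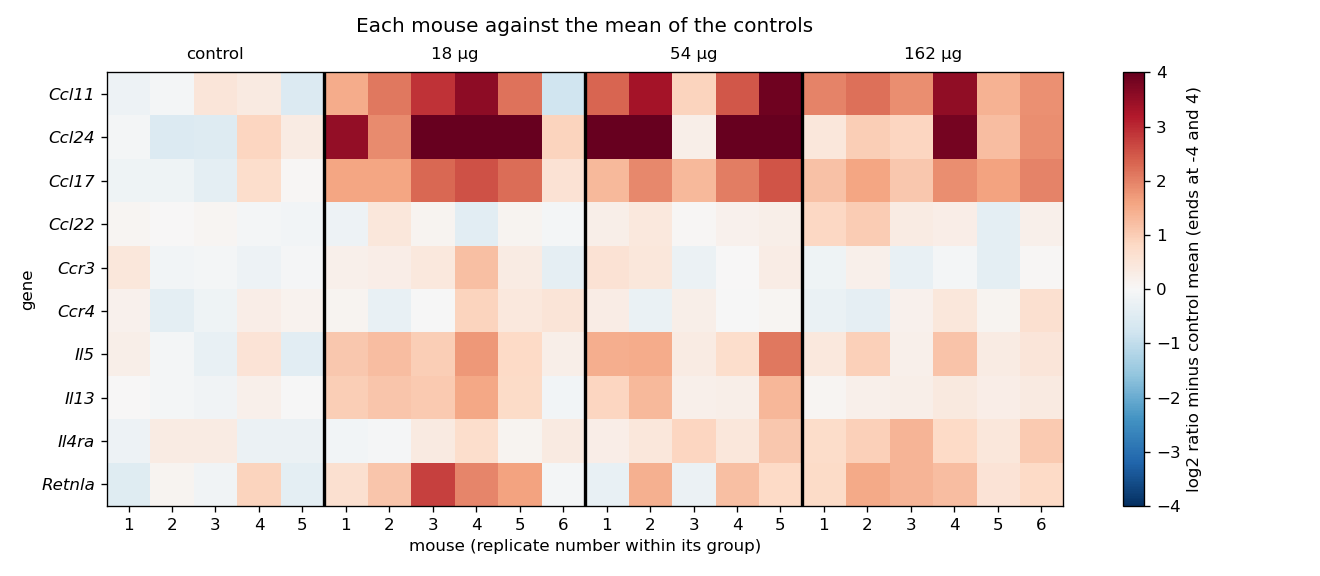
Log2 ratio of each gene in each mouse minus the mean of the controls, with colours ending at -4 and 4. The columns of 18 µg replicate 6 and 54 µg replicate 3 stay pale where their neighbours are dark, and the Ccl24 row is dark in most 18 and 54 µg mice but in replicate 4 alone at 162 µg.

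Compared directly, no member was called different between doses by limma: 0 of 10 for 162 µg against 18 µg, 162 µg against 54 µg and 54 µg against 18 µg, where 4.09%, 0% and 0.025% of all named genes were called (2.73%, 0% and 0.015% higher). At an unadjusted p under 0.05 the counts were 5, 1 and 2. The share of all named genes at that limit was not counted, so these counts cannot be set against it. For 162 µg against 18 µg the fitted difference was below 0 for 5 of the 7 genes that were well above background on an array of both groups, with a median of -0.41, where that over all named genes was 0.01. The 5 with an unadjusted p under 0.05 were Ccl24, Il13, Ccr3, Il4ra and Ccl22. Of these, Ccl24 and Ccr3 were lower at 162 µg and Il4ra was higher. Il13 was not well above background on any 162 µg array, nor Ccl22 on any 18 µg array. Their fitted signs are therefore not measured directions. By the bound of means, Il13 was at least 1.4-fold lower at 162 µg and Ccl22 at least 1.21-fold higher. Only Il4ra had an adjusted p of at most 0.05. Counted without a test, the groups did not overlap with the controls for 1 gene at 18 µg (Ccl24), 2 at 54 µg (Ccl11 and Ccl17) and 3 at 162 µg (Ccl11, Ccl17 and Il4ra), against 1.16%, 1.24% and 3.05% of all named genes.

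Other genes of the pathway were taken from lists, which were chosen with earlier results of these data known. Of all named genes, 0.52%, 0.205% and 2.74% were called higher at 18, 54 and 162 µg (1.7%, 0.32% and 5.64% in either direction). Of 7 other ligands of CCR3, CCR4 and CCR8, Ccl7 was called higher at 18 and 162 µg, Ccl5 was called lower at 162 µg and none was called at 54 µg, with medians of 0.29, 0.26 and 0.06. Of the 7, Ccl1, Ccl26 and Ccl28 were not well above background in controls, and over the 4 expressed ligands the medians were 1.03, 0.89 and 0.71. Ccl7 (MCP-3), a ligand of CCR3 and of monocyte receptors, lay above every control in all exposed mice and changed by 2.75 (adjusted p = 0.0428), 3.19 (adjusted p = 0.0723, not called) and 2.47 (adjusted p = 0.0279) at 18, 54 and 162 µg in limma. Ccl5 (RANTES), a T cell and eosinophil attractant, had changes of -0.30, -0.78 and -0.95 and fell at 162 µg (adjusted p = 0.0220). Ccl26, which lies next to Ccl24, was not well above background in any group.

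Of 9 other type 2 cytokines and alarmins, Areg was called at 162 µg and none at 18 or 54 µg (medians 0.07, 0.14 and 0.10, or 0.27, 0.24 and 0.18 over the 6 expressed). Areg encodes amphiregulin, an epidermal growth factor receptor ligand made by epithelium and innate lymphoid cells, and changed by 1.68 (adjusted p = 0.0181) at 162 µg in limma, where 5 of 6 mice lay above every control. Il33, the epithelial alarmin that activates group 2 innate lymphoid cells, had log2 changes of 1.51 (SE 0.58, adjusted p = 0.206), 1.76 (SE 0.62, adjusted p = 0.361) and 1.02 (SE 0.58, adjusted p = 0.397), and 5 of 6, 4 of 5 and 5 of 6 mice lay above every control, without a call.

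Of 17 receptors and transcription factors of type 2 cells, Irf4 was called at 18 µg and none at 54 or 162 µg, with medians of 0.21, 0.13 and 0.13. Irf4, a factor used by macrophages, dendritic cells and T cells under IL-4, changed by 0.95 (adjusted p = 0.0334) at 18 µg, where 6 of 6 mice lay above every control, and by 0.01 and -0.13 at 54 and 162 µg. It was lower at 162 µg than at 18 µg by limma, with a difference of -1.08 (adjusted p = 0.00410). In that comparison Il2rg, the common cytokine receptor chain, was also called lower and Rora, a factor of innate lymphoid cells, was called higher (0.71, adjusted p = 0.0115).

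Of 15 genes known to respond to IL-4 and IL-13, 4 were called higher at 18 µg, 1 at 54 µg and 2 at 162 µg, none lower, with medians of 0.72, 0.73 and 0.37. The shares of all named genes called higher were 0.52%, 0.205% and 2.74%. Since the list was chosen with earlier results known, its counts are a description and not a test. Arg1 (arginase-1), a marker of macrophages exposed to IL-4, was called at each dose with changes of 2.06 (adjusted p = 0.0407), 2.92 (adjusted p = 0.0269, with a value in 4 of 5 mice) and 1.76 (adjusted p = 0.0328) in limma. Slc26a4, which encodes the anion exchanger pendrin of airway epithelium, changed by 3.06 (adjusted p = 0.0481) at 18 µg, and by 3.04 and 2.28 without a call at 54 and 162 µg. Chil3 (Ym1), a chitinase-like protein of macrophages, changed by 1.73 (adjusted p = 0.0454) at 18 µg, and Pdcd1lg2 (PD-L2), a ligand of PD-1 on myeloid cells, by 0.72 (adjusted p = 0.0431). Cish, a feedback inhibitor of STAT5 signalling, was called at 162 µg (0.95, adjusted p = 0.0191), with 0.84 and 0.96 at the lower doses. Chil3 has a near-identical paralog, Chil4 (changes of 1.64, 1.11 and 0.72, not called), and signal shared between their probes cannot be told apart.

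**Figure D5:**
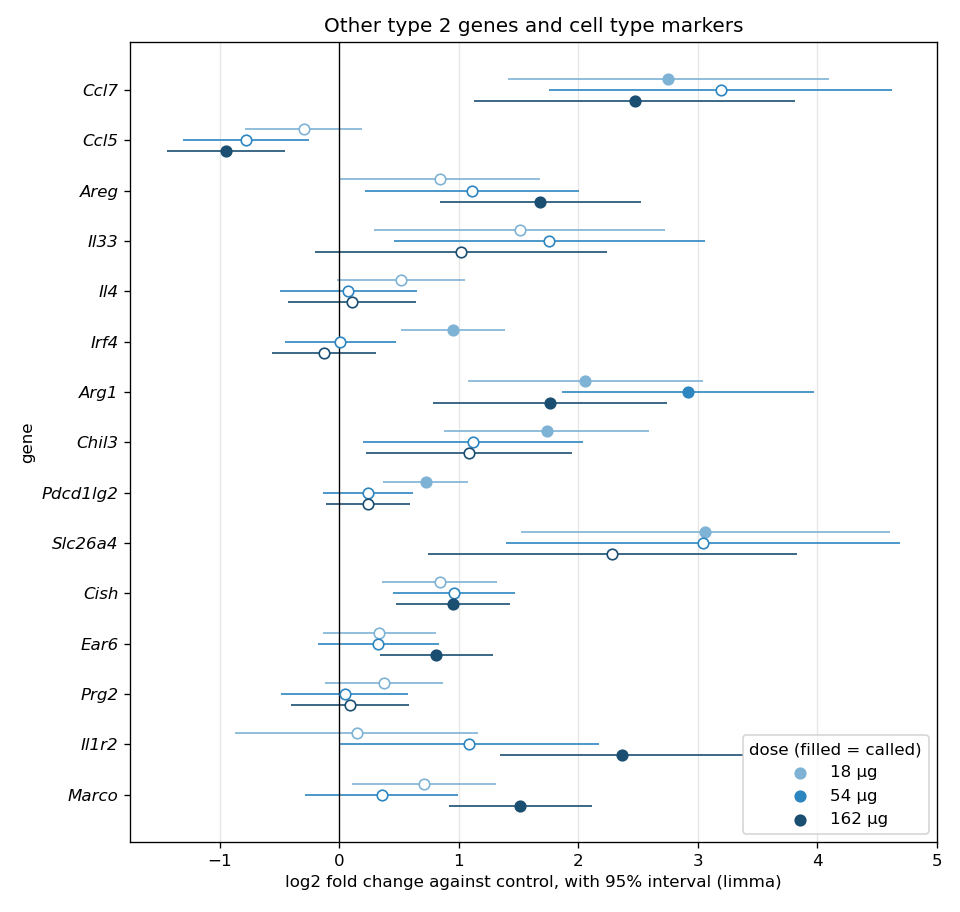
Log2 fold change against control at each dose, with 95% intervals from limma, for other type 2 genes and cell type markers. Filled points were called, and Arg1 is filled at all 3 doses (2.06, 2.92 and 1.76). Il4 lay near background.

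Markers of the cells that carry or make these molecules were read beside them. Of 11 eosinophil markers with a probe, none was called at 18 or 54 µg and Ear6 alone at 162 µg (0.81, adjusted p = 0.0400 in limma), with medians of 0.16, -0.02 and 0.09 (0.22, -0.10 and 0.15 over the 9 expressed). The mean over the 11 lay between 1.5 and 2.03 in controls, 1.54 and 1.99 at 18 µg, 1.61 and 1.98 at 54 µg, and 1.66 and 2.26 at 162 µg. The granule protein genes Epx and Prg3 were not well above background on any of the 22 arrays, and Prg2 had changes of 0.37 (adjusted p = 0.501), 0.04 and 0.09. Siglecf, Ear1 and Ear2 in this list are shared with alveolar macrophages, and the Ear genes are near-identical paralogs.

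Of 7 neutrophil markers, Il1r2 was called at 162 µg (2.36, adjusted p = 0.00746 in limma) and none at the lower doses, with medians of 0.14, 0.30 and 0.81. Their mean lay between 2.10 and 2.71 in 4 controls and was 5.11 in control replicate 2, which stood apart. It lay between 2.50 and 3.13 at 18 µg and 2.62 and 3.77 at 54 µg, and at 162 µg between 3.55 and 5.30 in 5 of 6 mice and at 2.54 in replicate 6. All 7 were measured. Of 10 alveolar macrophage markers, Chil3 was called at 18 µg and Marco, a scavenger receptor, at 162 µg (1.51, adjusted p = 0.00457 in limma). Their mean lay between 3.83 and 4.25 in controls, 3.71 and 4.47 at 18 µg, 3.75 and 4.50 at 54 µg, and 3.62 and 4.81 at 162 µg. Of the 7 mast cell and basophil, 9 T cell and group 2 innate lymphoid and 8 dendritic cell markers, none was called against control at any dose by limma, and their medians ran from -0.11 to 0.16 (-0.12 to 0.29 over the expressed markers). Mcpt8 and Ms4a2 were not well above background in any group, and in controls they were the only 2 of the 7 mast cell and basophil markers below it. Fcer1a was also below it at 18 and 162 µg, and Cma1 at 162 µg. The part of cell numbers in the changes of the 10 genes was not tested.

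As a description over the 22 arrays, which share slides and dose groups, the genes with the ratios most like those of each called gene were found among 15000 expressed genes. For Ccl17 they were Slc26a4 (Pearson r = 0.91), Ccl7 (0.90) and Ccl2 (0.88). For Il4ra they were Xpnpep1 (0.90), Sema7a (0.89) and Serpina3m (0.86), and for Retnla Anapc15 (0.86), Chia1 (0.83) and Glrx (0.83).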

How the data were processed

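For every array the authors deposited scanner output with the median intensity of each spot and its surroundings in Cy5 and Cy3, without background subtraction or normalization (Feature Extraction 10.7.3.1 in the headers). A second deposited table holds log2 ratios per probe, and how it was normalized and centred is not stated. Its columns have medians of -0.05 to -0.02 and correlate with the loess ratios at r = 0.834 to 0.998, so its direction is lung over reference, and it served as an alternative.

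Spots marked as outliers by the scanner software were left out. Log2(Cy5/Cy3) was normalized within each array by loess (span 0.3) and replicate spots were summarised by their median. Probes were named through RefSeq, and a gene is represented by its probe of highest mean intensity. The model in limma 3.58.1 (R 4.3.3) had dose and slide as fixed terms over 22 arrays, which left 12 residual degrees of freedom. Benjamini and Hochberg adjustment ran over 55681 probes. The limit for expression was the mean (5% trimmed) plus 3 standard deviations of the 308 negative control spots. The script was tested on simulated data, in which changes of 1.5 on the log2 scale were recovered at rates of 99%, 95% and 95% for 18, 54 and 162 µg. The changed probes were drawn at random from all probes, whose median standard error was 0.12 to 0.13. These rates do not hold for genes of wider spread, such as Ccl11 (SE 0.63 to 0.67) and Ccl24 (SE 0.96 to 1.03) against control. Median Cy5 signal over local background was 1.52 to 2.05 in controls and 1.18 to 2.50 in exposed mice, and the number of arrays limits the precision.

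The members and lists were chosen with earlier results of these data known. Named are all 10 members, the genes of each list called at 1 or more doses (at most 4), and Epx, Prg2, Il4 and Il33, besides chromosomal neighbours and genes named as background to these. For each called member, the 3 genes of highest Pearson r were named. Alternatives covered background correction (normexp, offset 50), normalization, channel, slide term, filters, threshold and leaving out each mouse.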

Additional observations from a re-analysis of the deposited data

Results flagged for a closer look

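Of 40 sets of values, 10 genes in 4 groups, 2 held a mouse that stood apart from the others of its group by a gap that was large against the group's range, and chance gives this in about 1 of 20 such sets. In 54 µg replicate 3, Ccl24 had a log2 ratio of -2.58, where the nearest of its group was 1.4. In control replicate 1, Ccr3 had a log2 ratio of 0.58, where the nearest control was 0.09.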

How the results depend on the processing

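The counts of called genes depended on the normalization. The share of all named genes called was counted for the main fit alone. The counts of members in the other fits therefore cannot be set against such a share. Median centring or no normalization left 0 at each dose. With Cy5 alone there were 6 at 18 µg, 4 at 54 µg, 4 at 162 µg and 2 for 162 µg against 18 µg. The deposited log2 table gave 1 at 18 µg (Retnla lost), 0 at 54 µg and 1 for 162 µg against 18 µg, and Retnla was gained at 162 µg. Background correction by normexp gave 0 at 54 µg. At 18 µg slide as a random block gave 4 (Ccl17, Ccl24, Il13 and Retnla). The 2 groups fitted alone gave 5 at 18 µg (Ccl11, Ccl17, Ccl24, Il13 and Retnla) and 4 at 54 µg (Ccl11, Ccl17, Ccl24 and Il5). At each dose such fits give no weight to the mice on slides 3 and 6, which held no control. For 162 µg against 18 µg, 1 gene (Il4ra) was called without a slide term, with slide as a random block, with outlier spots kept and with the adjusted p alone. With 1 mouse left out the count ran from 0 to 6 at 18 µg (highest without 18 µg replicate 6 or 54 µg replicate 5), 0 to 4 at 54 µg (highest without 54 µg replicate 3), 1 to 4 at 162 µg (highest without 18 µg replicate 4 or 54 µg replicate 3 or 5), 0 to 1 for 162 µg against 18 µg, 0 to 1 for 162 µg against 54 µg and stayed 0 for 54 µg against 18 µg. At 162 µg the count was 3 without a slide term, with slide as a random block and with expressed probes alone (Ccl11 gained), and 3 with the 2 groups fitted alone (Ccl11 and Retnla gained, Il4ra lost). At 18 µg without a slide term Ccl24 was gained and Retnla lost. The cause was not tested.

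The labels do not say what a replicate number marks, and some mice with the same number also shared a slide. Of 31 pairs with the same number, the deviations from the group means correlated at a median of 0.17 (-0.17 to 0.62), and 20 were over 0.1. The 20 of these pairs on different slides had a median of 0.10, with 10 over 0.1, and the 24 pairs on the same slide, whatever their number, had a median of 0.26. The replicate block therefore carries part of the slide. With the replicate number as a block in place of slide, 6 genes were called at 18 µg, 4 at 54 µg, 4 at 162 µg and 1 for 162 µg against 18 µg.

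Changes near 0 turned sign. At 18 µg Ccl22 was -0.09 without normalization and -0.01 without a slide term, Ccr4 was -0.01 with normexp, 0.00 (below 0) with median centring and -0.16 without normalization, and Il4ra was -0.09 with median centring and -0.25 without normalization. At 54 µg Ccr4 was 0.01 without normalization, 0.04 in the deposited table, 0.07 without a slide term and 0.07 with the replicate block. At 162 µg Ccr3 was 0.09 with Cy5 alone, and Ccr4 was 0.04 with normexp, 0.14 with Cy5 alone, 0.12 without a slide term, 0.07 with slide as a random block and 0.05 with the replicate block. For 162 µg against 18 µg Ccl11 was -0.02 with normexp and -0.23 with Cy5 alone, Ccl22 was -0.01 with Cy5 alone, and Ccr4 was 0.06 with normexp and 0.05 without normalization. With 1 mouse left out, Il4ra ran from -0.03 to 0.26 at 18 µg, Ccr3 from -0.17 to 0.01 and Ccr4 from -0.05 to 0.05 at 162 µg, and Ccl11 from -0.60 to 0.49 and Ccr4 from -0.15 to 0.00 for 162 µg against 18 µg.

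Of the other settings, 521 changes of single genes kept their sign and call, 42 gained a call and 15 lost one. Il5, Il13, Ccl22 and Ccr4 lie near background. The values of Ccl22 and Ccr4 at 18 µg, and of Il13 at 162 µg, involve a group not well above background. The same holds for these genes for 162 µg against 18 µg, so these fitted signs are not measured directions.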
